A study of Oryza sativa with 20 samples.

Results

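The step between 12 h and 6 h of feeding was analysed in rice leaves attacked by the rice leaf folder Cnaphalocrocis medinalis, a caterpillar that rolls leaves and scrapes their green tissue. The 4 libraries of 12 h were compared directly with the 4 libraries of 6 h, which are 8 of 20 libraries in all. The comparison covered loci with OS identifiers (Os, chromosome, g, number), the rice gene identifiers of the IRGSP-1.0 annotation. Of 37830 OS loci among 92858 identifiers listed, 20343 passed a filter on low values and were tested. The study has 4 libraries at each of 5 times, which run from no feeding (0 h) through feeding for 1 h, 6 h and 12 h up to 24 h. Plants of the strain Minghui 63 were 5 weeks old, and each library merged leaves of 5 plants of 1 treatment. Every fed leaf carried 1 larva of the 3rd instar that had been starved for 2 h and was confined in a Parafilm bag. The 0 h plants had bags without larvae. Larvae were added at different clock times and all leaves were cut together, so that 12 h and 6 h differ in when feeding began. The clock hour at which feeding began and the length of feeding cannot be told apart in this design. The strain is given by the study's methods, and no other genotype or agent is named.

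Jasmonic acid (JA) is the main wound hormone of plants attacked by chewing insects. It is made from linolenic acid by lipoxygenase (LOX), allene oxide synthase (AOS), allene oxide cyclase (AOC) and oxophytodienoate reductase (OPR), and a JAR enzyme couples it to isoleucine to give the active form. JAZ proteins repress jasmonate responses and are destroyed when the active form is perceived, while JAZ genes are themselves switched on by the hormone, so JAZ mRNA is a common readout of jasmonate signalling. Calmodulin (CaM) and calcium-dependent protein kinases (CDPKs) read calcium signals, and MAP kinases and WRKY transcription factors act in the same early defence signalling.

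FPKM (fragments scaled to transcript length and library size) was analysed as log2(FPKM + 1), and a locus was called when its Benjamini-Hochberg adjusted p (FDR) from limma was under 0.05. A change is 12 h minus 6 h on this scale, where weakly expressed genes show less than their true fold. The 8 libraries held 18510137 to 19218680 fragments on genes, a narrow range, and the median SD between replicates over the OS loci was 0.152 at 12 h and 0.134 at 6 h on the log2 scale. Correlations of log2 values were 0.9842 to 0.9924 between 12 h libraries, 0.9821 to 0.9905 between 6 h libraries, and 0.9617 to 0.9767 between the times. These correlations are across loci, which are not independent replicates. No library of the 8 lay closer to the other time than to its own by this measure.

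Most loci that changed were lower at 12 h than at 6 h in the deposited FPKM. Of the 20343 OS loci, 6336 (31.1%) were lower and 1743 (8.57%) were higher at 12 h, 39.7% in all. The median change was -0.16, and 70.2% of the loci were below 0. Changes were mostly small, with 500 of the lower loci beyond -1 and 121 of the higher loci beyond 1. Non-overlap gave a like picture, with all 12 h libraries below all 6 h libraries for 5906 loci (29.0%) and above them for 1525 (7.5%).

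This split depended on scaling between libraries. The median deviation of a library from the mean of the 8 ran from -0.134 to -0.035 at 12 h and from 0.043 to 0.112 at 6 h. The mean difference was -0.16, and the times did not overlap (exact permutation test, two-sided, p = 0.029, and 4 against 4 libraries cannot give less). After division by median-of-ratios factors, which set the typical locus equal between libraries, the difference was -0.008. In the scaled values, 3298 loci (16.2%) were higher and 3109 (15.3%) were lower at 12 h. The share of calls that were lower was 78.4% as deposited and 48.5% after scaling. All 1743 loci that were higher as deposited were also higher after scaling, and another 1555 joined them. Of the 6336 lower loci, 3109 were lower in both and 3227 were no longer called. FPKM cannot say whether the leaf held less mRNA per locus at 12 h, since it measures shares of a library. In bulk leaves, fewer cells of a type and less RNA per cell cannot be told apart either.

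**Figure D1:**
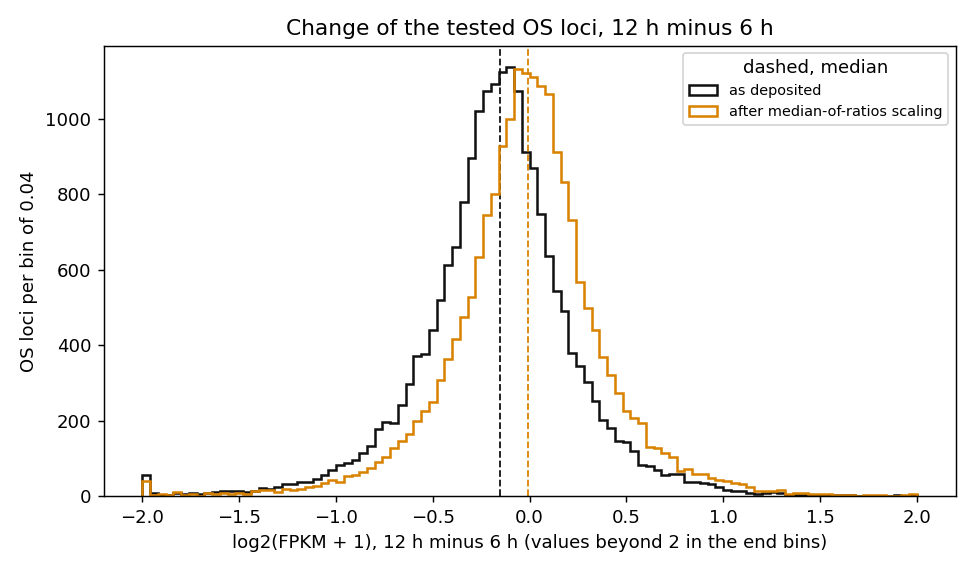
Number of OS loci (y axis) by their change in log2(FPKM + 1), 12 h minus 6 h (x axis), as deposited (black) and after median-of-ratios scaling (orange). Dashed lines are the medians, -0.16 as deposited and -0.01 after scaling, and the curve lies farther to the right after scaling.

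The common shift was uneven across abundance. Loci with a mean of under 3 FPKM had a median change of -0.13, those of 3 to 30 FPKM -0.19 and those of 30 to 300 FPKM -0.11. The 316 loci of 300 FPKM and over went the other way, with a median of 0.14, and 123 of them were higher and 60 lower at 12 h. After scaling, this class had a median of 0.33 with 155 loci higher and 33 lower, and the loci of under 3 FPKM had a median of -0.04. These abundant loci held 36.2% ± 1.11 of all fragments at 12 h and 31.3% ± 1.66 at 6 h (SD, n = 4 each). Library values were 35.2% to 37.8% at 12 h and 29.1% to 32.8% at 6 h, without overlap (two-sided exact permutation test, p = 0.029). For a fixed number of fragments, the rest of the loci thus shared a part that was smaller at 12 h by a log2 ratio of -0.106.

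**Figure D2:**
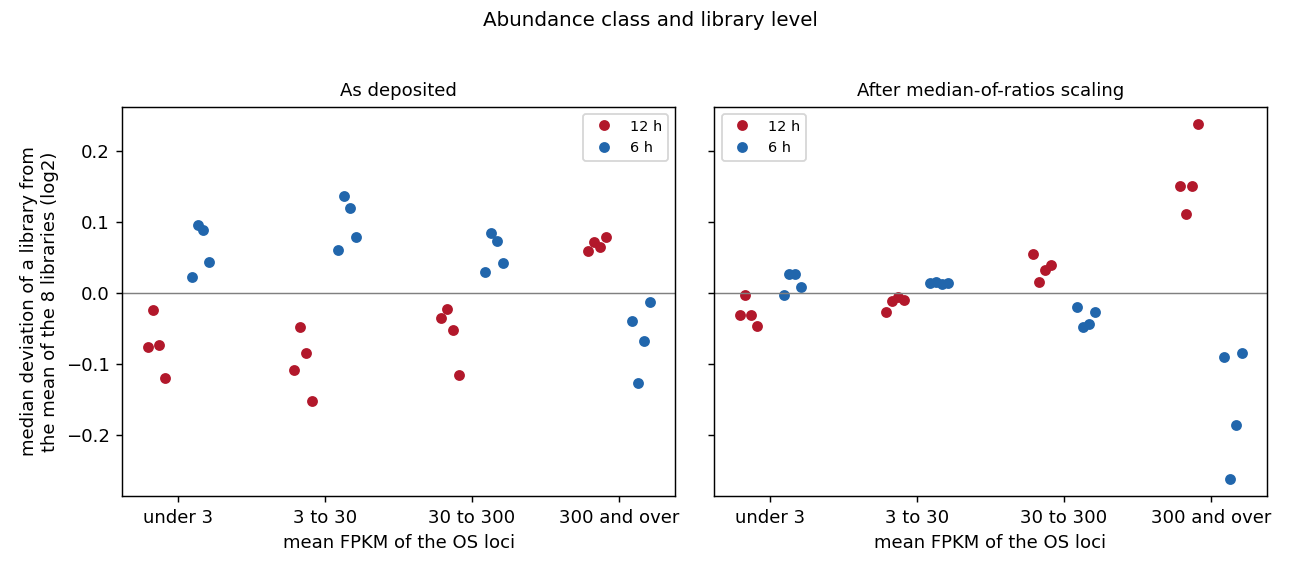
Median deviation of each library from the mean of the 8 libraries (y axis, log2) for OS loci in 4 classes of mean FPKM (x axis), 12 h in red and 6 h in blue, as deposited (left) and scaled (right). As deposited, 12 h libraries lie below 6 h libraries in the 3 lower classes and above them at 300 FPKM and over.

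A few loci took much of this gain. The 10 most abundant loci of a library took up 10.7% ± 0.648 of fragments at 12 h and 7.76% ± 0.563 at 6 h (SD, n = 4 each; two-sided exact permutation test, p = 0.029). One locus, Os11g0707000 on chromosome 11, is not named by the sources used here. It held 3.35% ± 0.496 of all fragments at 12 h against 1.09% ± 0.0979 at 6 h. Its change was 1.61 (FDR = 6.7e-07), and 1.79 after scaling. For the share left to all other loci, this gain alone corresponds to a log2 ratio of -0.033.

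The 12 chromosomes differed little as deposited. Over them, 26.5% to 33.6% of the tested OS loci were lower and 7.21% to 9.74% were higher at 12 h. After scaling, 12.8% to 16.9% were lower and 14.1% to 17.9% were higher, so that the common direction was lost. By gene length, class medians lay between -0.17 for loci from 1000 to under 2000 bases and -0.11 for those of 3000 bases and over. Outside the OS loci, 128 of 3004 tested EPlOSAG identifiers were lower and 113 were higher, with 8.02% called. After scaling, 60 were lower and 154 were higher.

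Many loci moved up by 6 h and down by 12 h. Of 4364 OS loci (21.5% of those tested) that were higher at 6 h than at 0 h, 3069 (70.3%) were lower at 12 h than at 6 h. They make up 48.4% of the loci lower in the step. At 12 h, 2669 of them did not pass the test against 0 h, 346 were called below 0 h and 54 were called above it. Among all tested OS loci, 9.81% were called below 0 h at 12 h and 6.46% above it. The opposite pattern was rarer. Of 1114 loci (5.48%) lower at 6 h than at 0 h, 706 (63.4%) were higher at 12 h than at 6 h, and 165 of these were called above 0 h at 12 h. These counts use the 6 h libraries on both sides, so a high or low value at 6 h alone can put a locus among them. The tests against 0 h also share the 0 h libraries, and the counts themselves were not tested. After scaling, 2408 loci (11.8%) were raised at 6 h and 1287 of them reversed, and 2340 (11.5%) were lowered and 1493 of them reversed, so the excess of falls over rises was lost. Without 6 h replicate 2, the counts as deposited were 1898 and 463.

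The step also held loci without a call at 6 h. Of these, 3233 were lower and 1016 were higher at 12 h than at 6 h, and after scaling 1794 were lower and 1779 were higher. Loci that were called in the same direction both times were few, 21 higher at 6 h and again at 12 h and 34 lower both times. These are 0.481% of the loci raised and 3.05% of those lowered at 6 h. The 6 h libraries enter both comparisons with opposite sign, which by itself keeps such counts low, and the counts were not tested.

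The values of 1 h and 24 h are not part of the difference between 12 h and 6 h, although these libraries entered the filter and the estimate of the spread. Against 0 h, the loci lower at 12 h than at 6 h had median levels, in order of time from 1 h to 24 h, of 0.05, 0.28, -0.16 and -0.02. For loci higher at 12 h, these medians were -0.03, -0.23, 0.25 and 0.15. Over all tested OS loci they were 0.01, 0.11, -0.03 and 0.03. The gap between the 12 h and 6 h medians follows from how the loci were chosen. The level at 24 h was nearer to 12 h than to 6 h for 70.1% of the lower loci and 82.4% of the higher loci, and for 79.6% and 77.7% after scaling. These loci were chosen by their 12 h and 6 h values. No such share was counted over all tested OS loci, so these shares have no comparator. As a median over the lower loci, 24 h stood at 0.32 of the way from the 12 h level back to the 6 h level. For the higher loci this share was 0.16. After scaling the shares were 0.18 for the lower loci and 0.24 for the higher loci, so their order depended on scaling. At 24 h, 264 of the 6336 lower loci (4.17%) stood above their 6 h level, which was high by the choice of these loci.

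**Figure D3:**
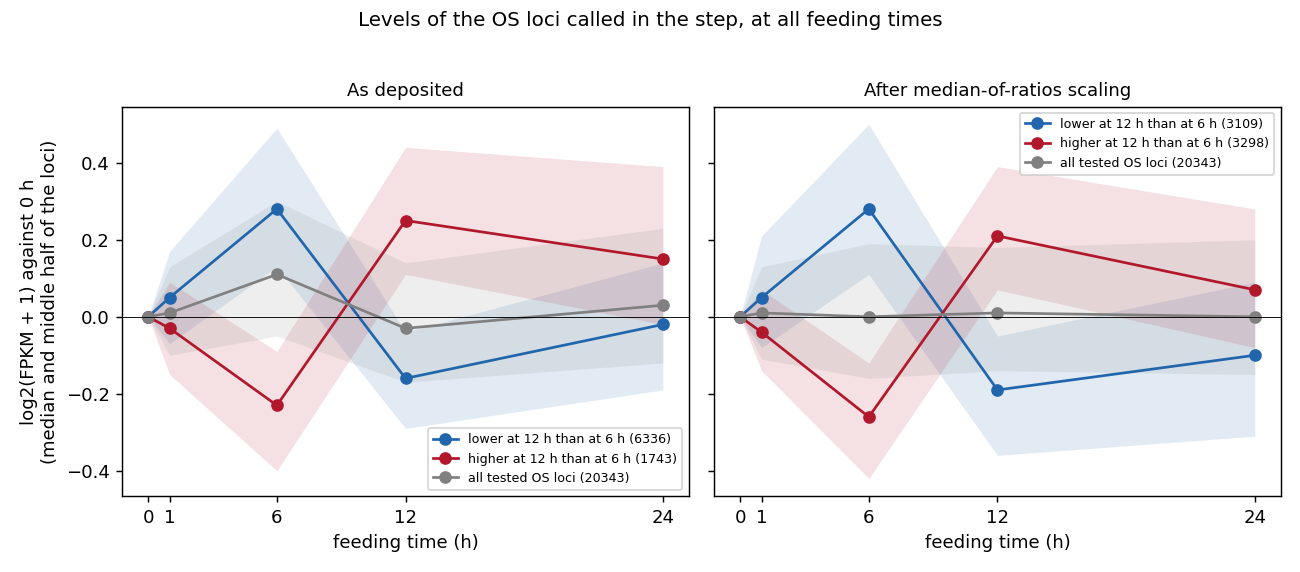
Median level against 0 h (y axis, log2, band from the lower to the upper quartile of loci) by feeding time (x axis, h) for OS loci lower at 12 h than at 6 h (blue), higher at 12 h (red) and all tested (grey), as deposited (left) and scaled (right). As deposited, the lower loci lie at -0.16 at 12 h and 0.28 at 6 h, and the higher loci at 0.25 at 12 h and -0.23 at 6 h.

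Functions could be followed for 17 loci that the study's own text or jasmonate map names, since the files carry no gene names. Of the 16 tested, 7 were lower at 12 h than at 6 h, 0 were higher and 9 did not pass the test, beside 31.1% lower and 8.57% higher among all tested OS loci. Without adjustment for multiple testing, 10 had a p under 0.05 and lower values and 0 had higher ones. The share of all OS loci at this unadjusted p was not counted, so these 2 counts have no comparator. Limma-voom on the recovered fragments called 8 of the 16 lower and 0 higher, beside 6347 and 1739 of the 20343 OS loci. The median change of the 16 genes was -0.58, against -0.16 over all OS loci, and 14 of 16 were below 0, beside 70.2% of all OS loci. The 12 h libraries were all below the 6 h libraries for 6 of the 17, beside 29.0% of all tested OS loci. After scaling, 5 were lower and 1 was higher, beside 15.3% and 16.2% of all tested OS loci, and when replicate 2 of 12 h was omitted, 4 were lower and 1 was higher. The study's text names 9 of the 17 as genes that responded to feeding in its own data. The other 8 were taken from its jasmonate map with their changes against 0 h in these libraries known. Their counts are therefore no independent evidence of a direction, either in the step or against 0 h.

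**Figure D4:**
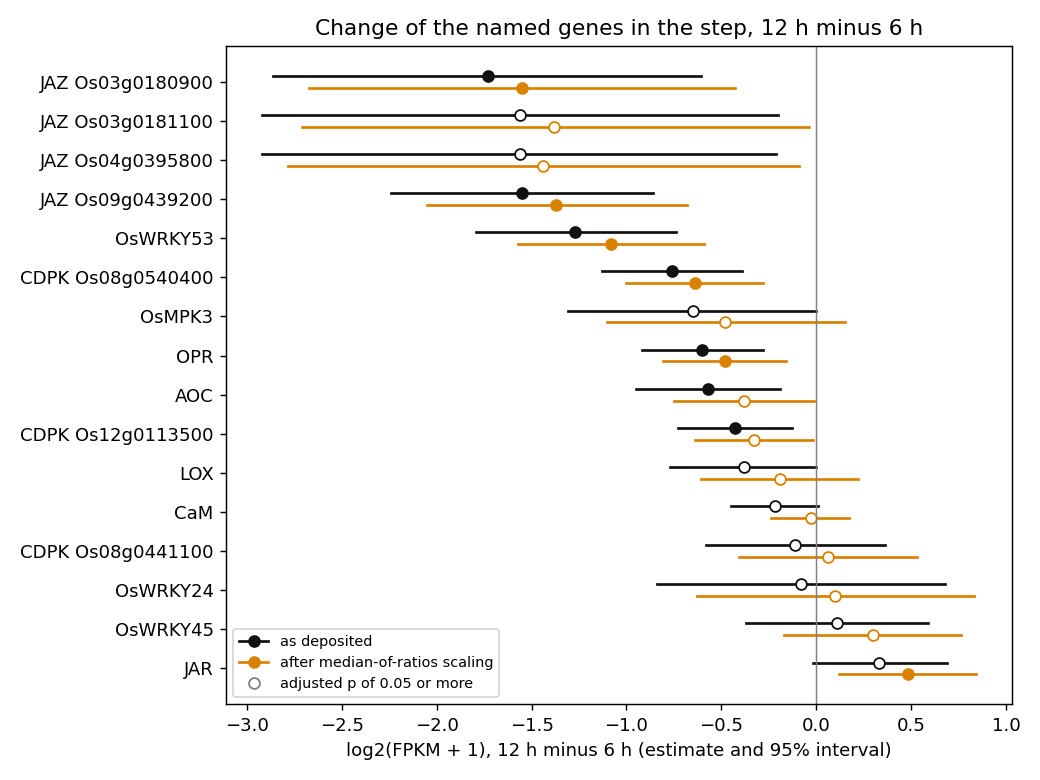
Change in log2(FPKM + 1), 12 h minus 6 h, with its 95% interval (x axis) for the 16 tested named genes (y axis), as deposited (black) and scaled (orange), with filled points for an adjusted p under 0.05. The 4 JAZ genes lie farthest to the left, between -1.73 and -1.55 as deposited, and JAR lies farthest to the right at 0.33.

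JAZ genes had the lowest median change of these groups. All 4 were below 0, beside 70.2% of all tested OS loci, and their median change was -1.56, and -1.41 after scaling. Both as deposited and after scaling, 2 were called lower, beside 31.1% and 15.3% of all tested OS loci. JAZ Os09g0439200 (chromosome 9) had 57.9, 36.5, 57.1 and 41.3 FPKM in the 12 h libraries, against 117, 196, 163 and 104 FPKM in the 6 h libraries. The times did not overlap, and the change was -1.55 ± 0.33 (SE; FDR = 0.0014), and -1.37 after scaling. JAZ Os03g0180900 (chromosome 3) had 33.4, 15.3, 33.3 and 21.3 FPKM at 12 h, against 27.4, 157, 174 and 65.5 FPKM at 6 h. Here 6 h replicate 1 lay within the 12 h range. The change was -1.73 ± 0.54 (SE; FDR = 0.018), and the adjusted p rose to 0.066 when replicate 2 or replicate 3 of 6 h was left out, and to 0.054 when replicate 2 of 12 h was.

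The other 2 JAZ genes had changes of the same size that did not pass the test. JAZ Os03g0181100 had 124, 46.3, 63.9 and 33.5 FPKM at 12 h, against 52.5, 419, 210 and 212 FPKM at 6 h. Its change was -1.56 ± 0.65 (SE; FDR = 0.069), with 6 h replicate 1 inside the 12 h range. It passed the test when replicate 1 of 12 h was omitted (-1.91, FDR = 0.04), and was -1.15 (FDR = 0.21) without 6 h replicate 2. JAZ Os04g0395800, with far fewer reads, had 1.94, 0.115, 0.762 and 0.793 FPKM at 12 h, against 0.872, 8.81, 10.9 and 2.62 FPKM at 6 h, a change of -1.56 ± 0.64 (SE; FDR = 0.067). Again the low value of the 6 h group was replicate 1. Without that library, all 4 JAZ genes were lower at 12 h, while only 1 was if replicate 2 or 3 of 6 h, or replicate 2 of 12 h, was omitted. Os03g0180900 and Os03g0181100 have neighbouring identifiers, and whether similar copies share reads was not tested.

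Replicate 1 of 6 h was the lowest of its group for 11 of the 17 genes, and replicate 2 was the highest for 10. Summed over the 4 JAZ genes, FPKM was 217, 98.1, 155 and 96.9 at 12 h, against 198, 781, 558 and 384 at 6 h. Thus replicate 1 of 6 h carried a JAZ level within the 12 h range, and replicate 2 the highest level of the 8. The strength of feeding in each leaf was not given with the samples, and its part in this spread was not tested. By the shift over all loci, replicate 1 was the lowest 6 h library (0.043) and replicate 2 the highest (0.112). A low replicate 1 was not particular to 6 h. Replicate 1 of 24 h was also the lowest of its group for the 4 JAZ genes. It had 41.0 FPKM for Os03g0180900, 129 for Os03g0181100, 0.601 for Os04g0395800 and 40.3 for Os09g0439200. Replicate 1 of 12 h was instead the highest of its group for these 4 genes. The labels do not say whether replicate numbers mark a batch.

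**Figure D5:**
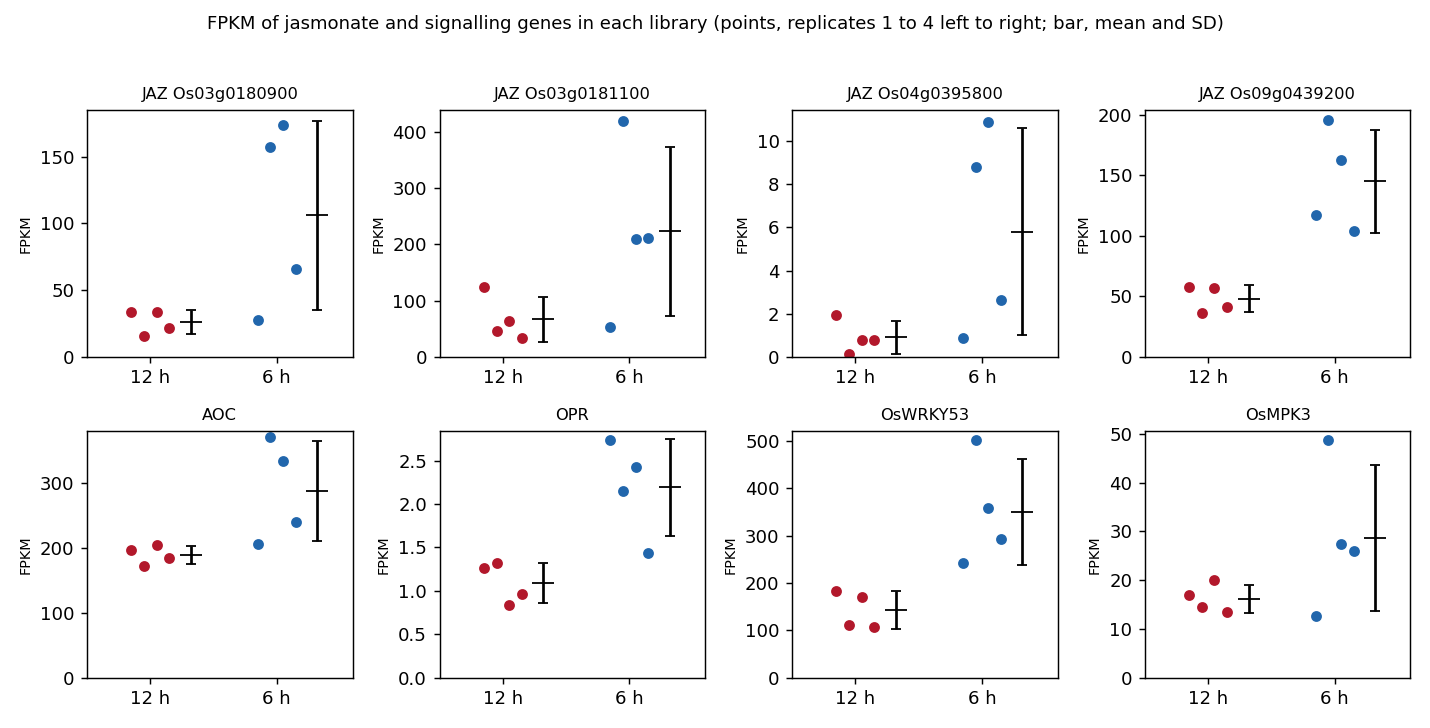
FPKM (y axis) of 8 named genes in each library at 12 h (red, left) and 6 h (blue, right), with points for replicates 1 to 4 from left to right and bars for mean and SD. In JAZ Os09g0439200, OsWRKY53, OPR and AOC the 12 h points all lie below the 6 h points, while in the other 3 JAZ genes and OsMPK3 the 6 h replicate 1 lies among or below the 12 h points.

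Compared with 0 h, the 4 JAZ genes were all called higher at 6 h, by 2.16 to 3.67, beside 21.5% of all tested OS loci. At 12 h, JAZ Os09g0439200 (2.12, FDR = 0.00027) and JAZ Os03g0180900 (1.80, FDR = 0.031) were called above 0 h, beside 6.46% of all tested OS loci. JAZ Os03g0181100 stood at 1.61 (FDR = 0.11) and JAZ Os04g0395800 at 0.59 (FDR = 0.6). At 24 h all 4 were again called above 0 h, by 2.44 to 3.77, beside 14.4% of all tested OS loci. The 4 genes were chosen with their changes against 0 h known, so these counts are no independent evidence of a rise. From 0 h to 24 h in order, the mean FPKM of JAZ Os03g0180900 was 6.86, 24.5, 106, 25.8 and 117, with 12 h below the times on either side of it. The 4 libraries of 24 h were widely spread, however, at 41.0, 149, 199 and 79.4 FPKM, and the difference of 24 h from 12 h did not pass the test (FDR = 0.056).

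Among genes of jasmonate synthesis, 3 were tested, of which 2 were lower at 12 h and 1 did not pass the test. After scaling 1 was lower. Of all tested OS loci, 31.1% were lower as deposited and 15.3% after scaling. AOC (Os03g0438100) had 196, 172, 204 and 184 FPKM at 12 h, against 206, 370, 334 and 240 FPKM at 6 h. All 12 h libraries were below those of 6 h, of which replicate 1 was the closest, and the change was -0.57 ± 0.18 (SE; FDR = 0.021). After scaling it was -0.38 with an FDR of 0.12, so this call depended on scaling. It was also lost when replicate 2 or 3 of 6 h (FDR 0.083 and 0.068) or replicate 2 of 12 h (FDR 0.053) was omitted. OPR (Os01g0369900) had 1.26, 1.32, 0.836 and 0.961 FPKM at 12 h, against 2.74, 2.15, 2.43 and 1.44 FPKM at 6 h. The times did not overlap, and its change of -0.60 ± 0.15 (SE; FDR = 0.0055) kept its call after scaling (-0.48, FDR = 0.026).

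LOX (Os02g0194700) had 88.6, 155, 149 and 198 FPKM at 12 h, against 212, 195, 149 and 191 FPKM at 6 h. Its change was -0.38 with an interval from -0.77 to 0.00 (FDR = 0.12), and -0.19 (FDR = 0.5) after scaling. It was -0.54 (FDR = 0.029) when replicate 4 of 12 h was omitted, and -0.16 (FDR = 0.43) when replicate 1 of 12 h was. It was the only gene of this group called below 0 h at 12 h (-0.77, FDR = 0.0081). AOS (Os03g0767000) did not pass the filter on low values, with 2 to 3 fragments per library at 12 h and 4 to 21 at 6 h. Its FPKM was 0.0811, 0.0793, 0.054 and 0.0522 at 12 h, against 0.107, 0.541, 0.569 and 0.269 at 6 h (two-sided exact permutation test, p = 0.029). In the fit without the filter its change was -0.35 (FDR = 0.016). These 4 single loci thus differed in level by orders of magnitude, on a scale that takes gene length into account. Whether other loci encode the same enzymes was not examined, so the level of a whole synthesis step is not known. At 6 h against 0 h, AOC was called higher by 1.07, OPR was at 0.21 and LOX at -0.39 without passing the test, and the differences between these genes were not tested.

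JAR (Os01g0221000), named so after the study's jasmonate map, was not called lower. Its length recovered from FPKM was only 482 bases, and whether this locus encodes a working JAR enzyme was not tested. It had 6.38, 3.50, 5.25 and 4.53 FPKM at 12 h, against 3.66, 3.02, 3.59 and 4.34 FPKM at 6 h. The groups overlapped, and the change was 0.33 with an interval from -0.02 to 0.69 (FDR = 0.14). After scaling it was 0.48 (FDR = 0.044), and when replicate 2 of 12 h was omitted it was 0.46 (FDR = 0.049). Without replicate 1 of 12 h it was 0.22 (FDR = 0.36). By 24 h JAR averaged 8.21 ± 0.726 FPKM (SD, n = 4), above 0 h by 1.06 (FDR = 0.00024).

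Of the 4 calcium genes, 2 were lower at 12 h as deposited and 1 after scaling, beside 31.1% and 15.3% of all tested OS loci. CDPK Os08g0540400 (chromosome 8) had 0.772, 0.911, 2.13 and 0.950 FPKM at 12 h, against 2.30, 3.76, 2.61 and 2.01 FPKM at 6 h. Replicate 3 of 12 h reached the lower 6 h values, and the change was -0.76 ± 0.18 (SE; FDR = 0.0029), and -0.64 after scaling. It had been raised at 6 h against 0 h by 0.69 (FDR = 0.0096) and was at -0.07 (FDR = 0.84) at 12 h. CDPK Os12g0113500 (chromosome 12) had 0.498, 0.757, 0.884 and 1.36 FPKM at 12 h, against 1.81, 1.22, 1.33 and 1.65 FPKM at 6 h. Its change of -0.43 ± 0.14 (SE; FDR = 0.025) was not called after scaling (-0.33, FDR = 0.11), nor when replicate 1 or 4 of 6 h (FDR 0.071 and 0.061) or replicate 1 or 2 of 12 h (FDR 0.085 and 0.056) was omitted.

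The remaining calcium genes did not pass the test. CaM (Os03g0319300), the most abundant of them, had 295, 286, 279 and 266 FPKM at 12 h, against 309, 377, 313 and 315 FPKM at 6 h. The libraries did not overlap, but the change was -0.22 (FDR = 0.13), close to the shift of all loci, and -0.03 after scaling. CDPK Os08g0441100 averaged 7.63 ± 1.69 FPKM at 12 h and 8.41 ± 2.35 FPKM at 6 h (SD, n = 4 each), a change of -0.11 with an interval from -0.58 to 0.36. Its sign turned to 0.06 after scaling. Both genes were called above 0 h at each of the last 3 times, CaM by 0.69, 0.47 and 0.74, and CDPK Os08g0441100 by 0.83, 0.72 and 0.82.

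Among the 4 kinase and WRKY genes, OsWRKY53 alone was called lower, as deposited and after scaling, beside 31.1% and 15.3% of all tested OS loci. OsWRKY53 (Os05g0343400), a WRKY factor that binds MAP kinases and restrains them in rice, had 183, 111, 170 and 108 FPKM at 12 h, against 243, 501, 359 and 292 FPKM at 6 h. The highest 12 h library was below the lowest 6 h library. Means were 143 ± 39.2 FPKM at 12 h and 349 ± 112 FPKM at 6 h (SD, n = 4 each), a ratio of 0.41. Its change was -1.27 ± 0.25 (SE; FDR = 0.00082), and -1.08 (FDR = 0.0021) after scaling. Against 0 h, OsWRKY53 changed by 1.08 (FDR = 0.0054) at 6 h, by -0.19 (FDR = 0.68) at 12 h and by 1.00 (FDR = 0.0083) at 24 h, and 24 h exceeded 12 h by 1.18 (FDR = 0.018), a rise called for 2.41% of all tested OS loci.

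OsMPK3 (Os03g0285800), a MAP kinase of defence signalling, had 16.9, 14.6, 20 and 13.5 FPKM at 12 h, against 12.6, 48.8, 27.5 and 26 FPKM at 6 h. The lowest of the 8 values was 6 h replicate 1, and the change of -0.65 ± 0.31 (SE; FDR = 0.11) did not pass the test. Without that library it was -0.98 (FDR = 0.011), and without 6 h replicate 2 it was -0.36 (FDR = 0.38). OsWRKY24 (Os01g0826400) averaged 21.2 ± 4.87 FPKM at 12 h and 24.0 ± 10.4 FPKM at 6 h, and OsWRKY45 (Os05g0322900) averaged 102 ± 12.4 FPKM at 12 h and 95.6 ± 22.4 FPKM at 6 h (SD, n = 4 each). Their changes were -0.08, with an interval from -0.84 to 0.68, and 0.11, with an interval from -0.37 to 0.59. The sign for OsWRKY24 turned to 0.10 after scaling. Of the last 3 times, both WRKY genes were called above 0 h at 24 h only, by 1.33 and 1.13.

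Read by function, 9 of the 16 tested genes were called above 0 h at 6 h, and 5 of these 9 were lower at 12 h than at 6 h. Over all tested OS loci, 21.5% were raised at 6 h and 70.3% of these were lower at 12 h, so reversal was no more frequent among the named genes. The 5 were AOC, CDPK Os08g0540400, OsWRKY53, JAZ Os03g0180900 and JAZ Os09g0439200. At 12 h 4 of the 16 were called above 0 h (6.46% of all tested OS loci), and at 24 h 12 were (14.4%), including 4 of the 5 that had reversed. The exception was CDPK Os08g0540400, at 0.16 (FDR = 0.59). Below 0 h, 2 of the 16 were called at 12 h (9.81% of all tested OS loci) and 3 at 24 h (8.94%). They were LOX and CDPK Os12g0113500 at both times, and OPR at 24 h (-0.57, FDR = 0.012). The named genes were chosen with changes against 0 h known, so their counts against 0 h are no independent evidence. After scaling, 9 were raised at 6 h and 4 reversed, AOC being the one lost, beside 53.4% of all raised OS loci. OPR and CDPK Os12g0113500 were lower in the step without a call at 6 h. None of the 16 was called below 0 h at 6 h. The opposite reversal, lowered at 6 h and higher at 12 h, could therefore not occur among them. No gene of photosynthesis is among those named, and whether unnamed loci act in photosynthesis was not examined.

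The largest single changes were in loci that the sources do not name. Ranking was limited to 6586 called OS loci with a mean of at least 10 fragments and no overlap between the times, 1354 higher and 5232 lower at 12 h. Os08g0374600 (chromosome 8) fell the most, with 0.826, 0.0897, 0.641 and 0.531 FPKM at 12 h, against 1.82, 24.3, 39.7 and 16 FPKM at 6 h. Its change was -3.32 ± 0.78 (SE; FDR = 0.0033), and 6 h replicate 1 was again far below its group. Its mean FPKM at the 5 times in order was 0.156, 3.18, 20.5, 0.522 and 13.3.

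Os07g0168300 (chromosome 7) had the next largest fall. It had 7.98, 5.10, 6.36 and 4.48 FPKM at 12 h, against 45.6, 93.8, 47.3 and 62.4 FPKM at 6 h, a change of -3.15 ± 0.23 (SE; FDR = 2.8e-08). Mean FPKM in order of time was 6.73, 16.5, 62.3, 5.98 and 6.78, so the 24 h level was near that of 12 h and of 0 h (-0.03 against 0 h, FDR = 0.94).

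The largest rises were also high at 24 h. Os08g0139700 (chromosome 8) had 462, 516, 590 and 368 FPKM at 12 h, against 81.8, 96.3, 89.4 and 102 FPKM at 6 h, a change of 2.36 ± 0.31 (SE; FDR = 2.2e-05). Its 24 h mean was 608 ± 91.1 FPKM, while its 0 h libraries were uneven, from 64.4 to 276 FPKM. Os02g0685200 (chromosome 2) had 21.2, 16.3, 25.9 and 19.4 FPKM at 12 h, against 3.42, 3.68, 3.35 and 2.52 FPKM at 6 h, a change of 2.35 ± 0.16 (SE; FDR = 1.4e-08). Its means in order of time were 3.45, 3.53, 3.24, 20.7 and 19.9 FPKM. Neither rise was a return from a called fall at 6 h, since the changes against 0 h were -0.50 (FDR = 0.27) and -0.05 (FDR = 0.84) at 6 h.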

How the data were processed

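Leaf RNA of 20 libraries was sequenced as paired ends. According to the paper's methods and the submitters' processing notes, the authors filtered reads, aligned them to IRGSP-1.0 with HISAT2 2.09, counted them per gene with featureCounts 1.5.0-p3 and deposited FPKM. The authors' DESeq2 test was not run, since FPKM are not counts. Minghui 63 is an indica rice and IRGSP-1.0 the genome of a japonica one. Strand use in counting is not given in the sources used here.

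Whole fragments were recovered from the deposited FPKM for 35755 of 35755 identifiers above 0 (tolerance 0.01 fragments). Libraries held 17796536 to 22090145 fragments on genes. Low genes are limited by counting error too.

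log2(FPKM + 1) was kept for the 24058 identifiers that reached 0.5 FPKM in 4 or more of the 20 libraries and fitted with limma-trend (limma 3.58.1, R 4.3.3) in 1 fit of 5 time points with 15 residual degrees of freedom. P-values were adjusted over all 24058 and called under 0.05, with no minimum fold change. On simulated libraries for 12 h minus 6 h, with 200 of 24058 identifiers changed by a log2 of 1, the test called 67.5% of them, and 4.93% of its calls were unchanged. The simulation had no common shift between the times, unlike the data with their shift of -0.16 and 39.7% of OS loci called. Its share of unchanged calls therefore does not carry over to this comparison. Permutation tests, tables and figures used scipy 1.17.1, pandas 2.3.3, numpy 2.4.6 and matplotlib 3.10.9 under Python 3.11.15.

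Alternatives were median-of-ratios and upper-quartile scaling, a pseudocount of 0.1, no filter, the 8 libraries alone, the replicate number as a block, each library of 12 h and 6 h left out, limma-voom on recovered fragments, and an absolute change over 1. OS loci tested alone was added after seeing the data.

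Comparison, lists and genes were chosen with earlier results of these data known. Named genes are those identified in the paper's text, jasmonate genes of its pathway map, and the 2 largest rises and 2 largest falls among unnamed loci. The unnamed locus of chromosome 11 falls outside this rule and was chosen after its values were seen. Planned function lists and leaf markers by gene description were not analysed here, because the RefSeq table used (ASM3414082v1) gives no descriptions. No other sequence or annotation was used.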

Additional observations from a re-analysis of the deposited data

Results flagged for a closer look

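Values of 17 named genes and 4 unnamed loci were screened within the 4 libraries of 12 h and the 4 of 6 h, 42 groups in all, for a library standing apart (a gap to its nearest neighbour past Dixon's critical share of the group's range). Chance marks about 1 in 20 such groups, and 2 were marked. CaM (Os03g0319300) had 377 FPKM in 6 h replicate 2, while the other 6 h libraries had 309, 313 and 315 FPKM. CDPK Os08g0540400 had 2.13 FPKM in 12 h replicate 3, while the other 12 h libraries had 0.772, 0.911 and 0.950 FPKM.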

How the results depend on the processing

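Scaling changed the counts. Lower OS loci numbered 6336 as deposited, 3109 with median-of-ratios and 3311 with upper-quartile scaling, and higher ones 1743, 3298 and 3072. Reversed loci raised at 6 h numbered 3069, 1287 and 1332, and those lowered at 6 h 706, 1493 and 1421. The shift between the times was -0.16, -0.008 and -0.02. Either scaling called 1 named gene higher, JAR. An absolute change over 1 left 500 lower and 121 higher loci, 397 and 81 reversed, and 3 named genes lower. With the 8 libraries alone, 1 JAZ gene was called. Leaving out 1 library gave 5116 to 6163 lower and 1492 to 1696 higher loci, 1898 to 3202 and 463 to 738 reversed, a shift of -0.175 to -0.142, 4 to 9 named genes lower, 0 to 1 higher and 1 to 4 JAZ genes lower. The lowest reversal counts came without 6 h replicate 2, and 4 named genes without 12 h replicate 2. Limma-voom on the recovered fragments called 6347 lower and 1739 higher OS loci. The other alternatives, OS loci tested alone among them, kept all these counts within 1.5 times.

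Over all tested loci, same-numbered libraries of 12 h and 6 h did not deviate together (correlations -0.0851 to 0.00442). The other times were not compared in this way, so what the replicate numbers share across all times is not settled. With the replicate block, 6161 OS loci were lower and 1703 higher, 2922 and 689 reversed, and 7 named genes were lower.

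For single genes, 286 of 320 values kept direction and call, 17 lost the call, 9 gained it and 8 turned sign. The sign turned for CDPK Os08g0441100 (0.06 with median-of-ratios and 0.04 with upper-quartile scaling, -0.23 to 0.00 with 1 library left out), OsWRKY24 (0.10 and 0.08, and -0.41 to 0.15) and OsWRKY45 (-0.04 to 0.24 with 1 library left out), none of which was called. The causes were not tested. Os08g0374600 had an FDR of 0.055 with limma-voom, where JAZ Os03g0181100 was called (FDR = 0.04). With the 8 libraries alone, CDPK Os12g0113500 (FDR = 0.069) and JAZ Os03g0180900 (FDR = 0.051) were not called.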
